A study of Homo sapiens with 4 samples.

Results

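The 8 genes described here encode the m6A writer complex, which places N6-methyladenosine (m6A) on messenger RNA: METTL3, METTL14, WTAP, VIRMA, ZC3H13, RBM15, RBM15B and CBLL1. Their m6A was read from lists of enriched intervals, taken as the rows that overlap a window around each gene on its strand (genome build hg19). The windows held 28 of the 13691 intervals listed for cells with METTL3 knockdown and 21 of the 11038 listed for cells without it. Intervals were found in 6 of the 8 genes, and METTL3 and RBM15B held none in either list.

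The cells were 16-HBE, an established human bronchial epithelial line, and m6A was measured by MeRIP-seq, where an antibody against m6A pulls down poly(A) RNA (IP) for sequencing, and RNA that skipped this step (input) serves as the comparison. The knockdown condition received siRNA against METTL3 and 5% cigarette smoke extract (CSE) for 24 h, and the CSE condition (genotype labelled WT) received the same extract. Both conditions were thus smoke-exposed, no smoke-free condition was analysed, and no control siRNA is named, so METTL3 reduction and siRNA transfection cannot be told apart. Each condition has 1 interval list, made from a precipitated and an input library. The design text gives 3 replicates per condition, but no replicate values were analysed, so no difference between the lists could be tested and none has a replicate check. The lists hold no expression values, so neither the METTL3 transcript level nor epithelial marker genes could be checked. The number of reads behind an interval is unknown.

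METTL3 is the catalytic subunit, and METTL14 is its partner, which holds the RNA. WTAP binds this pair and brings it to nuclear speckles. VIRMA (KIAA1429) is a large scaffold protein that has been linked to methylation near stop codons, and ZC3H13 connects WTAP to the rest of the complex and helps to keep it in the nucleus. RBM15 and RBM15B bind RNA and bring the complex to its targets, and CBLL1 (HAKAI) is a ubiquitin ligase that is also a stable component. In mammals m6A is known to lie mainly in long internal exons and around stop codons, in a sequence context whose commonest form holds GGAC, whose A is the methylated base.

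Most listed intervals of the writer genes were whole exons. Of the 28 knockdown intervals, 23 had exactly the length of an exon of the same gene in GENCODE release 29, and of the 21 CSE intervals 18 did. The annotation is of another build, so no position was carried over, and lengths and the distances between intervals were compared instead. For 22 of the knockdown and 17 of the CSE intervals, the distances to the other such intervals of the gene also equalled those between the exons. The borders of these intervals are therefore those of annotated exons, and their widths are not measured extents of methylation. The exceptions are the intervals of CBLL1, the first of METTL14 and those towards the 3′ end of WTAP. RBM15 has a length match alone.

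Sequences of exons that lie wholly within coding sequence are shown for 4 intervals that were listed with knockdown alone and for 3 that were listed in both conditions. They were read from the GENCODE transcripts, 5′ to 3′ in the sense of the messenger RNA, with each GGAC in capitals. The first 4 belong to knockdown-only intervals.
METTL14 exon 5: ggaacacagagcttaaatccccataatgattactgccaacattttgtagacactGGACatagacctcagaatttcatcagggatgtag
METTL14 exon 10: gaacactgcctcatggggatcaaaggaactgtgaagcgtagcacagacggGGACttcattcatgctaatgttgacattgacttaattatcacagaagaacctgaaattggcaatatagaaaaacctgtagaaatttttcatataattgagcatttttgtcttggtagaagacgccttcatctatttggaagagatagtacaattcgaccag
ZC3H13 exon 16: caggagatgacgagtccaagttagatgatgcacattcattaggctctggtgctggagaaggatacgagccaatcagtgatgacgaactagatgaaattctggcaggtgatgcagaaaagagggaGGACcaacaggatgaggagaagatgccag
ZC3H13 exon 18 of transcript ZC3H13-201: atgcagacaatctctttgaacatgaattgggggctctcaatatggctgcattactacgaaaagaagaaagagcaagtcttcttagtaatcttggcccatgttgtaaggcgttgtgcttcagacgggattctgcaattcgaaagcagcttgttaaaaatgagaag
METTL14 exon 2: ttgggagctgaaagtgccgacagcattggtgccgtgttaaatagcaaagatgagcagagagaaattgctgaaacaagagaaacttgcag
WTAP exon 3: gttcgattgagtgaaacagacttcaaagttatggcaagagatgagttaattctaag
ZC3H13 exon 11: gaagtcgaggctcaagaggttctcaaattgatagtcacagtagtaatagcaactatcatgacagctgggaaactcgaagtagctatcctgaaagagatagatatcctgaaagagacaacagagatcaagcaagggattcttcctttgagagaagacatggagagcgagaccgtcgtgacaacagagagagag

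GGAC, searched on the strand of the transcript only, was present in some of these exons and absent from others. The knockdown-only exons 5 and 10 of METTL14 and exon 16 of ZC3H13 held 1 each, and exon 18 of ZC3H13-201 held 0. METTL14 exon 2, WTAP exon 3 and ZC3H13 exon 11, listed in both conditions, held 0. The exons shown are a selection, and those listed in both conditions do not represent their kind. Over the coding exons of the principal transcripts of METTL14, WTAP, VIRMA and ZC3H13, GGAC was present in 3 of 4 listed with knockdown alone and in 10 of 17 listed in both conditions. These 4 are not the 4 shown, as exon 6 of WTAP-202 (179 nt, 0 GGAC) stands in place of exon 18 of ZC3H13-201. That WTAP exon is only part of an interval of 1231 nt, whose remainder was not searched. Among all coding exons of principal transcripts within 5 nt of the same length, GGAC occurred in 32.5% of those like METTL14 exon 5, in 61.1% of those like METTL14 exon 10, in 50.2% of those like ZC3H13 exon 16 and in 52.4% of those like exon 18 of ZC3H13-201. For the exons listed in both conditions the share was 32.7% for METTL14 exon 2, 25.7% for WTAP exon 3 and 58.4% for ZC3H13 exon 11. A match is only a stretch of letters, and exons without it can hold other forms of the m6A context.

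The 28 knockdown intervals set against the 21 CSE intervals give a ratio of 1.33 (95% interval 0.73 to 2.47), beside 1.24 (1.21 to 1.27) for the whole lists. An interval is called shared where at least 1 bp of it is also covered, on its strand, in the list of the other condition. Of the 28 knockdown intervals of the writer genes 7 had no overlap in the CSE list, a share of 25% (exact binomial 95% interval 10.7 to 44.9), where 35.5% of the whole knockdown list had none. Of the 21 CSE intervals 0 were without overlap in the knockdown list (exact binomial 95% interval 0 to 16.1%; the simpler limit of 3 counts of the total gives 14.3%), where 19.9% of the whole CSE list had none. Every interval listed for a writer gene in CSE was thus also listed with knockdown. These limits cover counting error only and treat intervals as independent, although intervals of 1 gene share its transcripts. Those of the ratios also treat the lists as independent counts, although 21 intervals of the writer genes were shared between them. They are thus not limits of a paired comparison. The 7 knockdown-only intervals lay in WTAP (3), METTL14 (2) and ZC3H13 (2), and the plot of interval numbers by gene shows that the other genes had equal numbers in both lists.

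**Figure D1:**
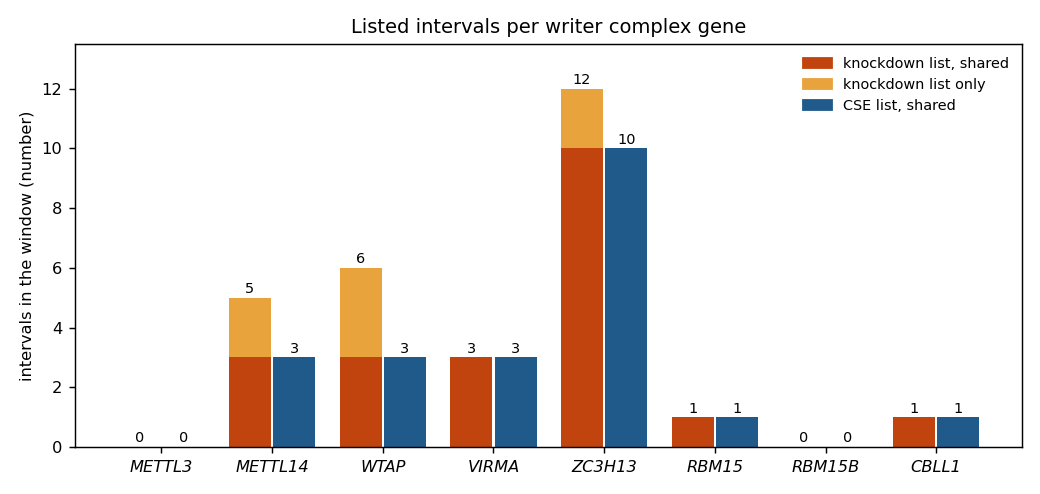
Number of m6A intervals in the window of each writer complex gene, for the METTL3 knockdown + CSE list (left bar) and the CSE list (right bar). The upper, light part of a left bar is the number listed with knockdown alone; METTL14, WTAP and ZC3H13 have such a part, and METTL3 and RBM15B have 0 intervals in both lists.

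The catalytic subunit itself carried no listed interval. In the METTL3 window on the minus strand of chromosome 14, the nearest knockdown interval on that strand lay 9.24 kb outside the window, and the nearest CSE interval 9.57 kb outside. Interval names carry a running number that increases with position, and most numbers are not listed. Between the listed intervals that flank METTL3, 1 number was unlisted in the knockdown list (over 27.8 kb) and 5 in the CSE list (over 89.6 kb). If the numbers count calls, an unlisted call in METTL3 cannot be told apart from none. The absence of an interval says nothing about the METTL3 level, and the knockdown could not be checked from it.

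RBM15B, a paralog of RBM15, was the other gene with no interval. Its nearest listed intervals on the plus strand of chromosome 3 were 7.91 kb outside the window with knockdown and 226 kb outside in CSE. The numbers between the flanking intervals included 2 unlisted ones with knockdown (over 20.5 kb) and 10 in CSE (over the much longer 795 kb). RBM15B has a single exon of 6641 nt with 37 GGAC, or 5.57 per kb. METTL3-201, the shortest of the 8 principal transcripts, has 2015 nt with 9 GGAC, or 4.47 per kb. The median over 19619 principal transcripts was 3.86 per kb (quartiles 2.56 and 5.52). Among the genes with intervals the value ran from 2.4 per kb in METTL14 to 5.89 in RBM15, a range that holds the values of METTL3 and RBM15B.

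METTL14, the RNA-binding partner of METTL3, had 5 intervals with knockdown and 3 in CSE. The 3 shared ones lay at the 5′ end of the gene on the plus strand of chromosome 4 and had identical borders in both lists. The first (119606525 to 119606755, 231 nt) had a score of 534.2 in the knockdown list and 76.1 in the CSE list. It ends with exon 1, and its start is not an annotated exon border. The second (119609078 to 119609166) was exon 2, of 89 nt, with scores of 276.1 with knockdown and 76.7 in CSE. The next (119610525 to 119610623, 99 nt) scored 500.7 with knockdown and 186.6 in CSE. It has the length of exon 3 of METTL14-206, a transcript annotated as subject to nonsense-mediated decay, where exon 3 of the principal transcript has 88 nt. Scores are the authors' values, on a scale that is not given, and are read within a list only. By percentile within the list, the 3 shared intervals stood at 65.8, 49.7 and 64.5 in the knockdown list and at 15.7, 15.9 and 44.9 in the CSE list.

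Both knockdown-only intervals of METTL14 lay further downstream. Exon 5 (119613136 to 119613223, 88 nt) had a score of 85.3 and exon 10 (119626766 to 119626976, 211 nt) a score of 67.3, at percentiles 16.3 and 9.0 of the knockdown list. They were thus among the weakest listed intervals of the writer genes. In the CSE list 8 numbers were unlisted between the neighbouring listed intervals, over 126 kb, so calls that were not listed are possible there. The last exon of METTL14-201 has 5436 nt and 12 GGAC and carried no interval in either list.

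WTAP, which brings the METTL3-METTL14 pair to nuclear speckles, had the largest difference between the lists among these 8 genes, with 6 intervals with knockdown and 3 in CSE. Its intervals summed to 3292 nt with knockdown and 761 nt in CSE, with mean widths of 549 nt with knockdown and 254 nt in CSE. Exon 3 (plus strand of chromosome 6, 160160022 to 160160077, 56 nt) and exon 5 (160164697 to 160164824, 128 nt) were listed in both with identical borders. Exon 3 scored 950.3 with knockdown and 653.5 in CSE, and exon 5 scored 959.2 with knockdown and 1095.4 in CSE. Both exons stood at percentiles of 75.7 to 84.1 of the list they came from, although they are short, at percentiles of 1.5 to 23.4 by width. The remaining shared pair ended at the same base, the end of exon 7, but started 65 nt apart, with 512 nt (504.9) in the knockdown list and 577 nt (182.5) in the CSE list. Exon 7 of WTAP-202 has only 155 nt, so both intervals start upstream of it, at no annotated exon border.

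The 3 knockdown-only intervals of WTAP were wider than 300 nt and together covered 2596 nt. One (160148030 to 160148365, 336 nt, score 130.1) had the length of the untranslated first exon of WTAP-205. Another (160169223 to 160170453, 1231 nt, score 129.8) started where exon 6 starts. Exon 6 is the last exon of WTAP-201, a shorter transcript, with 1225 nt there and 179 nt in the principal transcript WTAP-202. The last (160176060 to 160177088, 1029 nt, score 53.6) started where the last exon of the longer transcripts starts. The knockdown list thus held an interval at the start of each of these last exons of WTAP, and the CSE list at neither. All 3 had low scores, at percentiles from 2.3 to 29.1 of the knockdown list. In the CSE list 2 numbers were unlisted in the 739 kb around the first of them. Around the second 1 was unlisted in 9.24 kb, and around the third 8 in 349 kb.

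**Figure D2:**
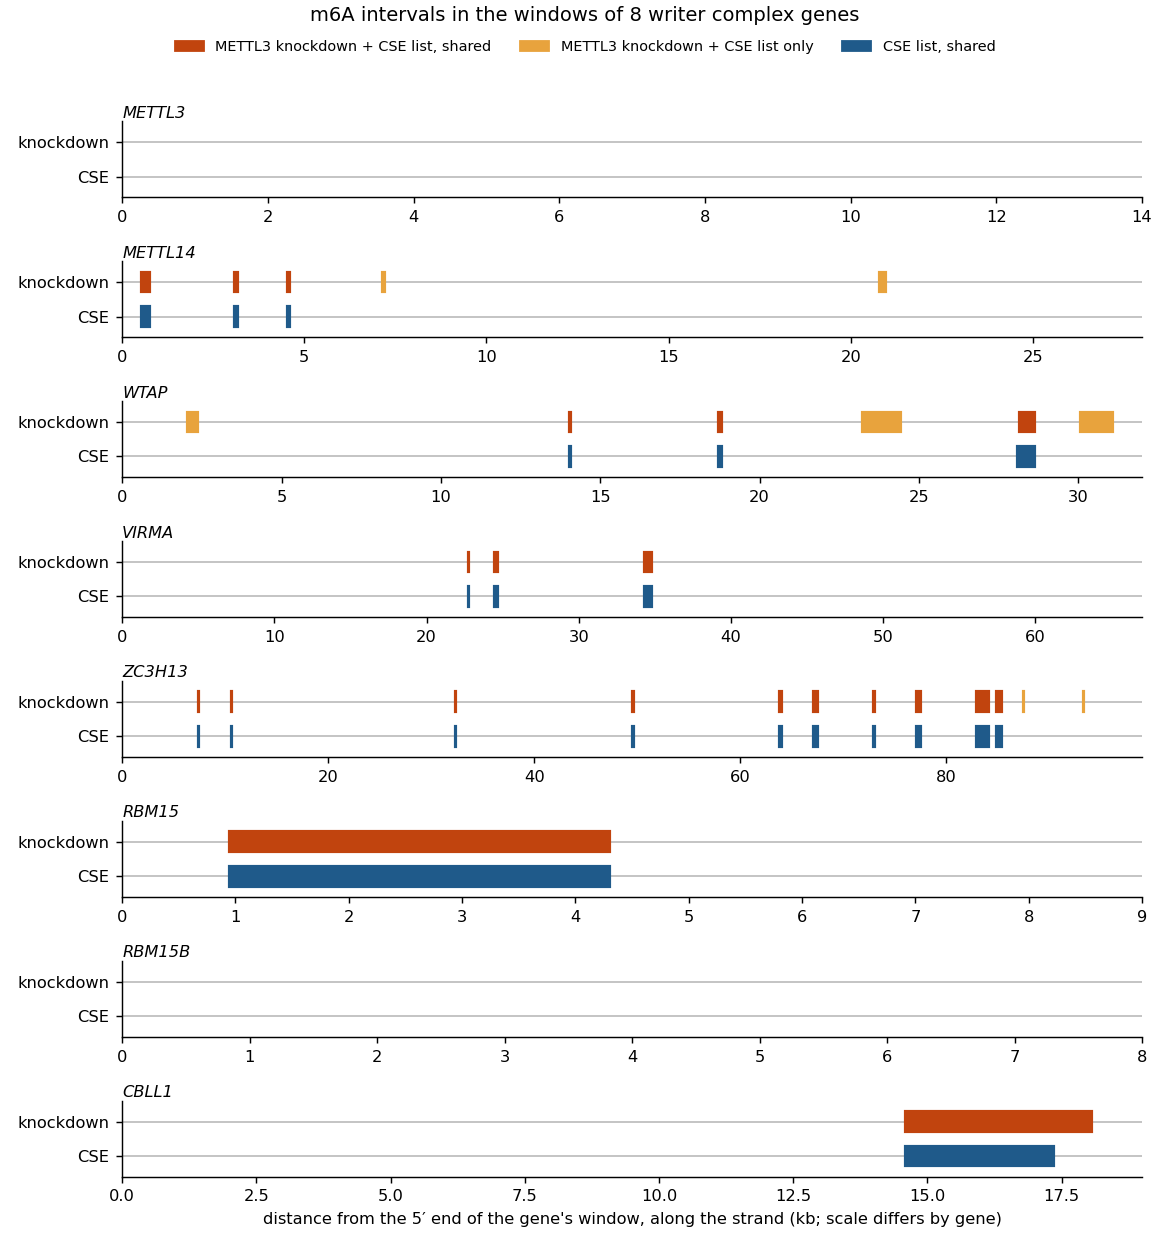
Position of each interval in the window of its gene, in kb from the window's 5′ end along the strand, with the METTL3 knockdown + CSE list above the CSE list; box widths are interval widths plus a thin outline, and the scale differs by gene. Every CSE box has a knockdown box over it, the light boxes in METTL14 and ZC3H13 lie 3′ of all shared boxes, and those of WTAP lie at both ends and between shared ones.

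VIRMA, the large scaffold, had the same 3 intervals in both lists, with identical borders, in the middle of the gene on the minus strand of chromosome 8. They were exon 6 (95543191 to 95543313, 123 nt), exon 7 (95541298 to 95541570, 273 nt) and exon 9 (95531213 to 95531704, 492 nt). Exon 7 scored 3100.0 in both lists, the value at which scores pile up. Exon 6 scored 462.2 with knockdown and 184.0 in CSE, and exon 9 scored 80.9 with knockdown and 60.3 in CSE, the lowest among shared intervals of the writer genes in each list. Strong and weak neighbours thus followed each other within a few exons. Exon 8, between them, has 1141 nt and 6 GGAC but carried no interval. No running number was left out between exons 7 and 9 in the CSE list (45366 and 45367), and 1 was left out in the knockdown list (44144 and 44146). The other 21 of 24 exons of VIRMA-201 were not listed.

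ZC3H13, the link between WTAP and the other subunits, carried the most intervals, 12 with knockdown and 10 in CSE. Stretches of its window's length, 99 kb, were taken from the start of any interval towards higher coordinates, whatever its strand. They held a median of 2 intervals of that strand in either list. At least 12 were found in 1.15% of the stretches of the knockdown list and at least 10 in 1.04% of those of the CSE list. The stretches overlap and include those of ZC3H13 itself, the gene with the most intervals. With their own window lengths and numbers, the shares (knockdown, then CSE) were 4.73% and 21.9% for WTAP. They were 7.71% and 20.6% for METTL14, and 36.2% and 29.4% for VIRMA. The 10 shared intervals had identical borders and lay on the minus strand of chromosome 13 between 7.4% and 85.7% of the window's length from its 5′ end, from 46619526 to 46619651 near the 5′ end to 46541639 to 46542163. Intervals touched 11 of the 17 exons of ZC3H13-202 with knockdown and 10 in CSE.

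Scores in ZC3H13 were high in both lists. Scores of 3100 or more were reached by 6 of its 12 knockdown intervals and by 4 of its 10 CSE intervals. In the 8 genes together these were 9 of 28 with knockdown (32.1%, 15.9 to 52.4) and 6 of 21 in CSE (28.6%, 11.3 to 52.2), where the share was 8.55% of the whole knockdown list and 5.98% of the whole CSE list. The 4 exons of ZC3H13 with a score of 3100 in both lists were exon 11 (46553948 to 46554139, 192 nt), exon 12 (46549418 to 46549973, 556 nt), exon 14 (46542883 to 46544106, 1224 nt) and exon 15 (46541639 to 46542163, 525 nt). Exon 10 (465 nt) scored 3100.0 with knockdown and 2241.9 in CSE. Among its shared intervals, the lowest scores in both lists were in the 5′ part of the gene, with 945.6 with knockdown and 283.8 in CSE for an interval of 119 nt (46616292 to 46616410), the length of the last exon of the short transcript ZC3H13-203. High scores were not limited to wide intervals. Exon 11, without a GGAC, stood at percentile 44.7 by width in the knockdown list and 37.8 in the CSE list.

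The knockdown-only intervals of ZC3H13 lay 3′ of all shared ones. They were exon 16 (46539415 to 46539567, 153 nt, score 171.8) and an interval of 164 nt (46533618 to 46533781, score 116.0) that equals exon 18 of ZC3H13-201, a transcript of 19 exons. Their percentiles in the knockdown list were 36.6 and 25.6, against at least 76.9 for the shared intervals of the gene. In the CSE list 18 numbers were unlisted over the 700 kb around them. The last exon of ZC3H13-202, of 1867 nt, had no interval in either list.

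RBM15 had 1 interval, identical in both lists (plus strand of chromosome 1, 110881945 to 110885312). Its 3368 nt equal the length of the single exon of RBM15-203. It scored 3222.3 in the knockdown list, where only 5 intervals scored higher, and 2362.1 in the CSE list, where 869 did. CBLL1 likewise had 1 interval per list (plus strand of chromosome 7), starting at 107398588 in both. It ran for 3483 nt with knockdown and 2774 nt in CSE, so that the 3′ borders lay 709 nt apart, and it scored 3100.0 in both. No CBLL1 exon has either length, and the last exon of the principal transcript has 3525 nt. CBLL1 and WTAP were thus the only writer genes with a shared interval whose borders differed. Over the 8 genes 19 of 21 shared intervals had identical borders, where 82.1% of all shared intervals did.

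**Figure D3:**
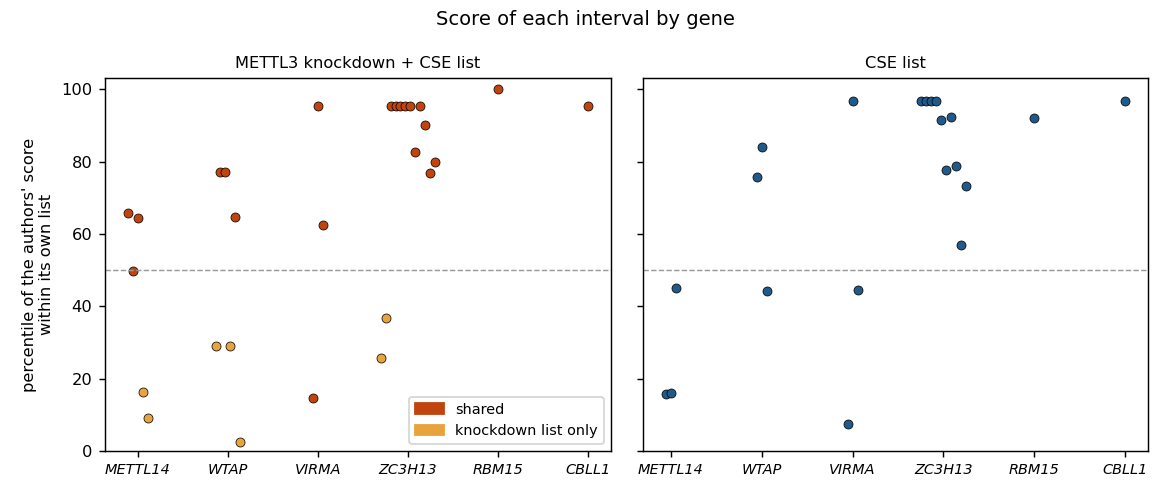
Percentile of the authors' score within its own list for each interval of the 6 genes with intervals, in the METTL3 knockdown + CSE list (left) and the CSE list (right), ordered by chromosome position within a gene; the dashed line is the list median. The 7 knockdown-only points lie between 2.3 and 36.6, and most ZC3H13 points lie above 70.

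Knockdown-only intervals of the writer genes stood below the middle of their list by score without exception. All 7 were below the list median, with scores from 53.6 to 171.8 and a median of 116. In the whole list 81.2% of the knockdown-only intervals were below it, and their median was 117. Shared intervals of the writer genes had a median percentile of 82.6 in the knockdown list and 78.8 in the CSE list. For all shared intervals these medians were 64.8 in the knockdown list and 56 in the CSE list. The high standing rested largely on ZC3H13. Without it the median percentile of all writer gene intervals was 63.5 with knockdown, against 76.9 with it, and 44.9 in CSE, against 78.8.

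By width the writer genes resembled the lists. The median was 221 nt with knockdown and 231 nt in CSE, beside 218 nt in the whole knockdown list and 285 nt in the whole CSE list. Intervals over 300 nt made up 42.9% in either condition (12 of 28 with knockdown and 9 of 21 in CSE), beside 41.4% of the whole knockdown list and 48.9% of the whole CSE list. The summed width was 15891 nt with knockdown and 12035 nt in CSE (1.32 times as much with knockdown), beside 1.09 times as much for the whole lists. The mean widths were 568 nt with knockdown and 573 nt in CSE, beside 639 nt in the whole knockdown list and 727 nt in the whole CSE list. Of the excess, 3212 nt lay in the 7 knockdown-only intervals and 709 nt in the longer CBLL1 interval, while 1 shared WTAP interval was 65 nt shorter with knockdown.

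Exons with and without intervals could be compared in METTL14, WTAP, VIRMA and ZC3H13, whose intervals share the spacing of exons. Of the 60 exons of their principal transcripts, intervals touched 25 with knockdown and 19 in CSE. The 17 exons that lie wholly in coding sequence and were listed in both conditions had a median length of 192 nt and 4.71 GGAC per kb. Those 4 listed with knockdown alone had 166 nt and 4.75 per kb, and the 29 that were not listed had 140 nt and 3.68 per kb. The ranges of length overlapped, from 56 to 1224 nt for exons in both lists and from 49 to 1141 nt for those in neither. GGAC was present in 10 of the 17, in 3 of the 4 and in 10 of the 29. The order of GGAC per kb was not the same in each gene. Exons in both lists and in neither had 5.42 and 3.91 in ZC3H13, and 2.95 and 0 in WTAP. In METTL14 they had 0 and 3.82, and in VIRMA 3.38 and 3.69. The pooled sets also differ by gene, since ZC3H13 supplied 9 of the 17 and VIRMA 19 of the 29. The exons of 1 gene are not independent, and these values are a description with no test. Of the 4 last exons, which hold the stop codon, WTAP alone had an interval, and it was in the knockdown list.

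**Figure D4:**
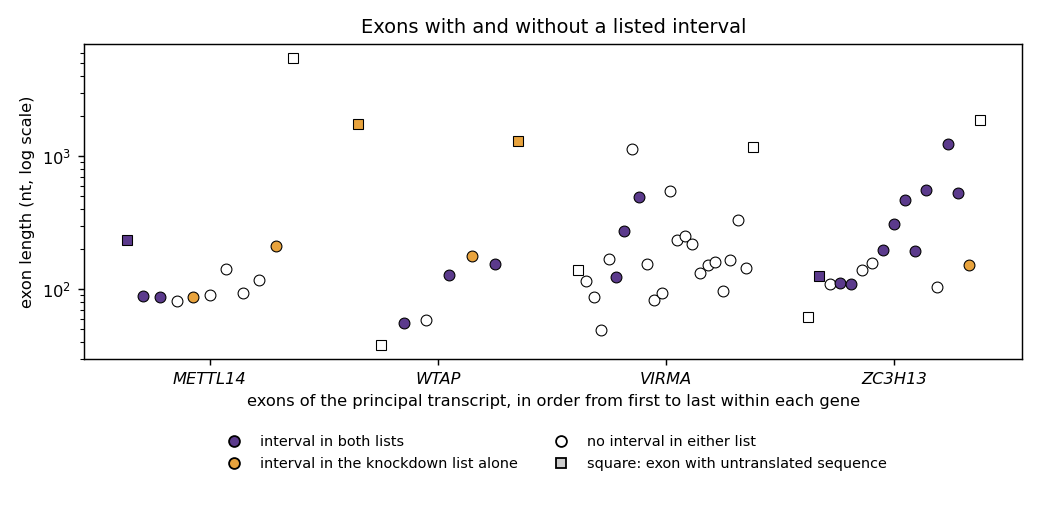
Length of each exon (log scale) of the principal transcripts of METTL14, WTAP, VIRMA and ZC3H13, ordered from first to last within each gene; dark fill marks exons touched by an interval in both lists, light fill those touched in the knockdown list alone, and open symbols those in neither list, with squares for exons that hold untranslated sequence. The rightmost symbol of METTL14, VIRMA and ZC3H13 is open, and in ZC3H13 the consecutive exons 9 to 12 are dark.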

How the data were processed

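The submitters' processing notes name HISAT2 2.0.4 and the build hg19. Intervals are named MACS_peak with a number, after a peak caller (version and settings not stated). Per the files, each deposited list has 6 columns (chromosome, start, end, name, score, strand). The score is the authors' value per deposited interval, on a scale that is not stated, from 50.02 upwards with a pile-up at 3100. It was used only within its list. Positions were converted to counting from 1.

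The members and gene lists were chosen with earlier results of these data known. Rows overlapping the 8 windows on the gene's strand were taken, all were named, and overlap between lists was judged with Python 3.11.15 after a check on simulated intervals. Shares carry exact binomial intervals (scipy 1.17.1). With 1 list per condition there is no test and no p-value.

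GENCODE release 29 belongs to GRCh38, so exon lengths and spacings were compared, within 1 nt, and no position was carried over. The spacing comparison, the motif counts and the running numbers were chosen after seeing the data. The counts of intervals in stretches of a window's length were likewise not planned beforehand. Principal transcripts are the protein-coding transcripts with the best APPRIS principal tag, the longest where several share it. Other genes of the m6A pathway were not analysed here, since their hg19 positions were not used. The sequences of some other exons listed in both conditions are not reported here. Alternatives were other overlap rules, the upper 50% of each list by score, intervals wholly inside the windows, and leaving out each gene.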

Additional observations from a re-analysis of the deposited data

How the results depend on the processing

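Of 139 values recomputed under alternatives, 129 stayed within the counting error, within 0.05 for the length ratio, or within 1.5 times a count, 10 moved and 0 reversed. Part of the 129 could not move. METTL3 and RBM15B held no interval, the CSE-only share was 0 without any 1 gene, and every interval lay wholly inside its window. The counting error was also wide, so the number that stayed is no measure of stability. The ratio of summed widths, 1.32, was 1.16 where only the upper 50% by score of either list was kept, and ran from 1.12 without WTAP to 1.44 without RBM15. With identical borders required, the knockdown-only share was 32.1% and the CSE-only share 9.52%. Leaving out each gene gave knockdown-only shares from 18.2% (without WTAP) to 31.2% (without ZC3H13) and interval ratios from 1.22 to 1.45. In the upper 50%, the 7 knockdown-only intervals drop out by their scores, and the 4 of 19 (21.1%) then without overlap, 2 in METTL14 and 1 each in WTAP and VIRMA, are shared intervals whose CSE counterpart dropped out. Intervals were matched by position between the lists, but with 1 list per condition no replicate samples could be paired. Small numbers of intervals and unknown read depth limit every share.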
